A study of Homo sapiens with 6 samples.

Results

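The 8 genes described here stand at the head of fibroblast growth factor (FGF) signalling and were followed in head and neck squamous carcinoma cells that received miR-204-5p. They are the ligand FGF2, the carrier protein FGFBP1, the receptors FGFR1, FGFR2, FGFR3 and FGFR4, the receptor-like FGFRL1 and the docking protein FRS2. They were chosen by symbol, as the FGF receptors and the genes that bind FGF or the receptor, and make up 8 of the 14959 genes with deposited values. The cells were UM-SCC1, an established line of head and neck squamous cell carcinoma (HNSCC). In 3 libraries the cells had been transfected with miR-204-5p mimics, synthetic RNA duplexes that act as the mature miRNA, and in 3 with control mimics, and RNA was taken at 48 h. All libraries share the line, the transfection procedure and the culture conditions, so the control mimics carry the exposure to small RNA but not the miR-204-5p sequence. The 3 libraries of each group are labelled as replicates, all of a single cell line, and the level of the mimic itself was not measured here.

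FGFs are secreted proteins that bind heparan sulfate at the cell surface and pair with FGF receptors, which are tyrosine kinases. The activated receptor phosphorylates FRS2, which recruits GRB2 and SOS and passes the signal on to RAS and the ERK kinases. In stratified squamous epithelium FGFR2 and FGFR3 are the receptors best known, and FGFBP1 is a secreted protein of squamous cells that frees FGFs such as FGF2 from the matrix. FGFRL1 binds FGFs but lacks the tyrosine kinase domain.

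The sequences below show the mimic and the only matches of 7 or more bases to its seed that were found in annotated 3'UTRs of the 8 genes. The seed, bases 2 to 8 of the mature miRNA, is in capitals in the first line, and the match is in capitals in the other lines. The miRNA sequence is from RefSeq (GRCh38.p14, chromosome 9, 70810031 to 70810052, minus strand), and the sites were read 5' to 3' along GENCODE 29 transcripts on GRCh38.
miR-204-5p: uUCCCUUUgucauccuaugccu
FRS2 site: catctttaactAAAGGGAAttaatgtagag
FGFR2 site: ttcctctgtgcAAAGGGAAccatgtatatg

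FRS2 carries the full 8-base match, AAAGGGAA, 142 bases after the stop codon in its longest 3'UTR of 4834 bases. The site lies in exon 7, the last exon, on chromosome 12 (plus strand, 69575098 to 69575105; window 69575087 to 69575116). FGFR2 also has an 8-base match, at chromosome 10 from 121538044 to 121538051 on the minus strand (window 121538033 to 121538062). That site belongs to the last exon of a short alternative transcript, ENST00000359354, and the longest 3'UTR of FGFR2 holds only the 6-base core AAGGGA, 1225 bases after the stop codon. In the longest 3'UTRs of the other genes no match to AAAGGGA or AAGGGAA was found along the transcript strand, the AAGGGAA match being contained in AAAGGGAA. FGFR3 and FGFBP1, the genes with the largest changes below, did not hold even the 6-base core AAGGGA in theirs, of 3087 and 359 bases. Among 14660 genes with a 3'UTR, 27.1% had a match of 7 or more bases in the longest one and 39.4% had the 6-base core. A match is a description of sequence only and is not evidence that the site is used.

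Levels are given as FPKM (fragments counted for each kilobase of a transcript and for each 1e6 that mapped), so that genes can be set side by side per length. The depth, an estimate from the steps between low values, was 13.1 to 16.4 (in 1e6 fragments) per library, with the groups overlapping. Of 8 squamous markers all were detected. By the test below 5 fell and 2 rose, beside 16.8% of all genes lower and 23.9% higher. The summed level of the 8 markers ran from 516 to 618 FPKM with miR-204-5p mimics and from 705 to 735 FPKM with control mimics. TP63 and DSG3, both typical of squamous cells, fell, and CDH1 and KRT6A rose. The 4 fibroblast markers analysed, nearly all COL1A1, summed to 9.81 to 11.6 FPKM with miR-204-5p mimics and 8.58 to 9.41 FPKM with control mimics, and 2 of them rose. The 3 endothelial markers summed to 0.590 to 0.767 and 0.443 to 0.502 FPKM, and 1 rose. The 5 leukocyte markers summed to 22.5 to 25.4 and 27.5 to 28.7 FPKM, mostly CD14 and CD68, and CD14 fell, with PTPRC at most 0.546 FPKM. All libraries are of the UM-SCC1 line, so these markers do not count fibroblasts, endothelial cells or leukocytes. In bulk RNA fewer cells that express a marker and less of its RNA per cell cannot be told apart. What these markers contribute to the results on FGF genes was not tested.

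With miR-204-5p mimics FGFR3 fell 3.03-fold, while FGFBP1, FGF2, FGFR2 and FGFR4 rose by smaller amounts. FGFRL1, FRS2 and FGFR1 did not pass the test. Values were compared as log2(FPKM + 1), a scale that understates changes of low genes, with limma, fitted over all 14959 genes and adjusted by the Benjamini-Hochberg method, and an adjusted p-value under 0.05 was taken as passing. By this rule 1 of the 8 genes was lower and 4 were higher, whereas over all genes 16.8% were lower and 23.9% were higher. The median log2 fold change of the 8 genes was 0.22, as compared to 0.03 over all genes. The FPKM ranges of both groups did not overlap for 5 of the 8 genes and for 53.6% of all genes, and 40.8% of all genes passed, so the number of changed genes is no result about these 8. For a single gene the exact permutation test of 3 libraries against 3 cannot go below p = 0.1, and all 5 passing genes reached that limit.

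**Figure D1:**
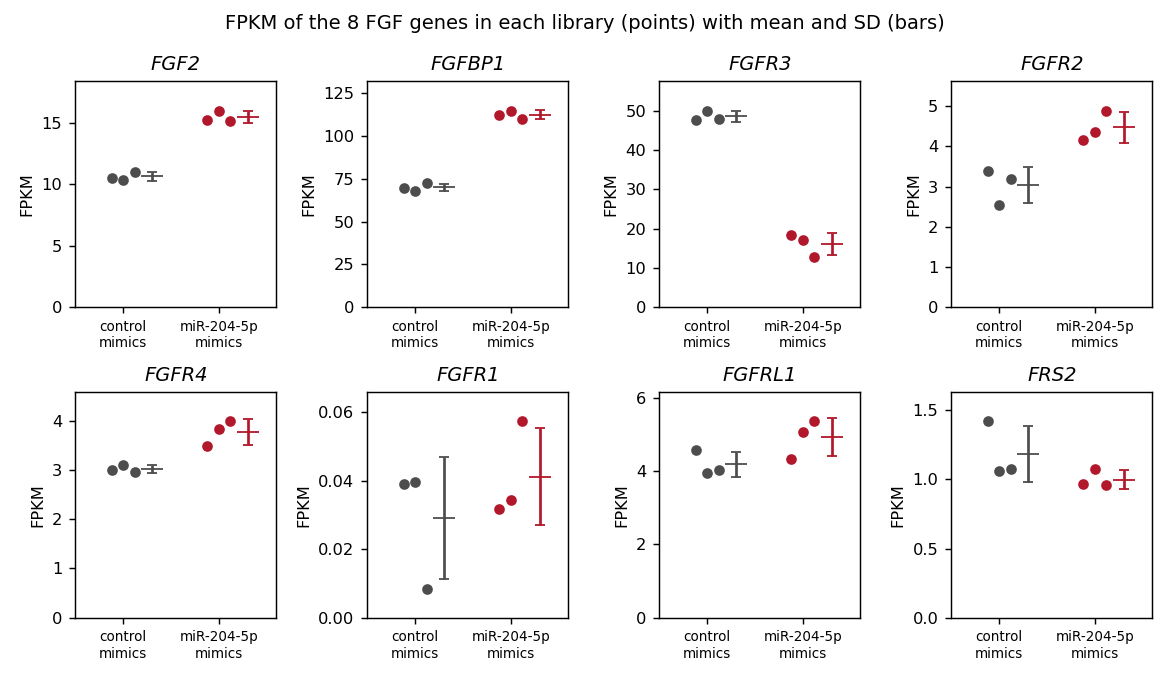
FPKM of each of the 8 genes (vertical axes, from 0, a scale of its own per gene) in the 3 control mimics libraries and the 3 miR-204-5p mimics libraries, with points for libraries and bars for mean and SD. FGFR3 lies at 47.6 to 50.1 FPKM in control mimics and at 12.8 to 18.3 FPKM in miR-204-5p mimics, and the groups also separate for FGF2, FGFBP1, FGFR2 and FGFR4.

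FGF2, also called basic FGF, is a ligand of several FGF receptors. It was listed at 15.2, 16.0 and 15.1 FPKM in miR-204-5p mimics replicates 1 to 3 and at 10.53, 10.34 and 11.03 FPKM in control mimics replicates 1 to 3. Every miR-204-5p library was above every control library, with means of 15.4 ± 0.482 and 10.6 ± 0.356 FPKM (SD, n = 3). The rise was 0.50 on the log2 scale (standard error 0.0468, adjusted p = 0.000445 in limma). FGF2 (ENSG00000138685) lies on chromosome 4 (plus strand, 122826708 to 122898236). Of its listed transcript 11.9% (804 bases) overlaps exons of NUDT6 on the opposite strand, and NUDT6 averaged 5.14 FPKM with miR-204-5p mimics and 2.73 FPKM with control mimics. No source used here says that counting used strand, so reads of the overlap cannot be assigned to one of the genes.

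FGFBP1 was the most abundant of the 8 genes. Its FPKM was 112, 115 and 110 with miR-204-5p mimics and 69.3, 68.1 and 72.4 with control mimics. The groups were far apart relative to the spread within them, at 112 ± 2.62 against 70.0 ± 2.24 FPKM (SD, n = 3). FGFBP1 (ENSG00000137440, chromosome 4 from 15935569 to 15938740, minus strand) thus rose 1.61-fold, by 0.68 on the log2 scale (standard error 0.0382, adjusted p = 8.92e-05 in limma). It has a single annotated protein-coding transcript, and no exon of another gene overlaps it. The related FGFBP3 was lower in level and also higher with miR-204-5p mimics, at 1.16 ± 0.149 and 0.617 ± 0.0887 FPKM (adjusted p = 0.00471 in limma, log2 change 0.42).

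FGFR3 was the dominant FGF receptor of the control cells. Its FPKM was 47.6, 50.1 and 48.0 in the control mimics libraries and 18.3, 17.0 and 12.8 in the miR-204-5p mimics libraries. All 3 miR-204-5p libraries were below all controls, and miR-204-5p mimics replicate 3 was the lowest. The mean went from 48.6 ± 1.33 to 16.0 ± 2.85 FPKM (SD, n = 3), a 3.03-fold difference of the means. On the log2 scale FGFR3 fell by 1.55 (95% confidence interval −1.84 to −1.27, adjusted p = 0.000223 in limma). Of all 14959 genes, 17 had a more negative log2 fold change. Without miR-204-5p mimics replicate 3 the log2 fold change was −1.41. FGFR3 (ENSG00000068078) lies on chromosome 4 (plus strand, 1793293 to 1808872), as a transcript of 18 exons and 4306 bases, with no exon of another gene over it.

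FGFR2, the receptor for FGF7 and FGF10 in epithelia, moved the other way. It was listed at 4.16, 4.36 and 4.89 FPKM with miR-204-5p mimics and at 3.38, 2.54 and 3.19 FPKM with control mimics. The groups did not overlap, although control mimics replicate 2 stood below the other two controls. FGFR2 (ENSG00000066468, chromosome 10 from 121478334 to 121593967, minus strand) rose by 0.44 on the log2 scale (95% confidence interval 0.20 to 0.68, adjusted p = 0.0136 in limma), from 3.04 ± 0.442 to 4.47 ± 0.378 FPKM (SD, n = 3). This call was kept in each of 13 alternative analyses, with adjusted p-values from 0.00966 to 0.0436. The values are per gene, so the epithelial and mesenchymal splice forms of FGFR2 cannot be told apart.

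FGFR4, the receptor through which FGF19 signals in liver, showed a small rise that depended on the libraries used. Its FPKM was 3.48, 3.83 and 3.99 with miR-204-5p mimics and 3.00, 3.11 and 2.95 with control mimics. The groups were separate by a narrow margin. The log2 fold change was 0.24 (95% confidence interval 0.09 to 0.40, adjusted p = 0.0244 in limma), with means of 3.77 ± 0.262 and 3.02 ± 0.0773 FPKM (SD, n = 3). The call was lost without miR-204-5p mimics replicate 2 or 3 or any one control library (limma adjusted p 0.0526 to 0.0726) and kept without miR-204-5p mimics replicate 1 (0.0211). It was also lost when libraries were scaled to equal sums (adjusted p = 0.0561 in limma). FGFR4 (ENSG00000160867) lies on chromosome 5 (plus strand, 177086886 to 177098144).

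FGFR1, the main FGF receptor of mesenchymal cells, was close to the limit of detection. It was listed at 0.0317, 0.0345 and 0.0574 FPKM with miR-204-5p mimics and at 0.0392, 0.0395 and 0.00841 FPKM with control mimics. At the length of its listed transcript this corresponds to an inferred 0.741 to 4.81 fragments per library. The lowest of these is less than a whole fragment, so the inferred numbers are approximate. The groups overlapped, and no change of FGFR1 was detectable at this depth (adjusted p = 0.726 in limma). FGFR1 (ENSG00000077782) lies on chromosome 8 (minus strand, 38411138 to 38467845), and its longest 3'UTR holds the 6-base core 2 times.

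FGFRL1 had 4.35, 5.08 and 5.37 FPKM with miR-204-5p mimics and 4.58, 3.97 and 4.03 FPKM with control mimics. The lowest miR-204-5p library was thus below the highest control. The log2 fold change was 0.19 with a 95% confidence interval from −0.02 to 0.40, and it did not pass the test (adjusted p = 0.133 in limma). FGFRL1 (ENSG00000127418) lies on chromosome 4 (plus strand, 1009979 to 1026891).

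FRS2, which has the seed match in its longest 3'UTR, did not pass the test. Its values were 0.964, 1.08 and 0.958 FPKM with miR-204-5p mimics and 1.42, 1.06 and 1.07 FPKM with control mimics. Control mimics replicate 1 was the highest library, and the other 5 lay between 0.958 and 1.08 FPKM. The log2 fold change was −0.12, with a 95% confidence interval from −0.31 to 0.06 (adjusted p = 0.250 in limma), and it was −0.05 without control mimics replicate 1. The transcript listed for FRS2 (ENSG00000166225, chromosome 12 from 69470349 to 69570372, plus strand) is an incomplete one of 611 bases. It ends before the site shown above. At that length the FPKM of FRS2 corresponds to an inferred 7.70 to 12.2 fragments per library. No source used here says whether the values were counted on that transcript alone or over all transcripts of the gene. How far they cover the long 3'UTR that carries the match is therefore not known.

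**Figure D2:**
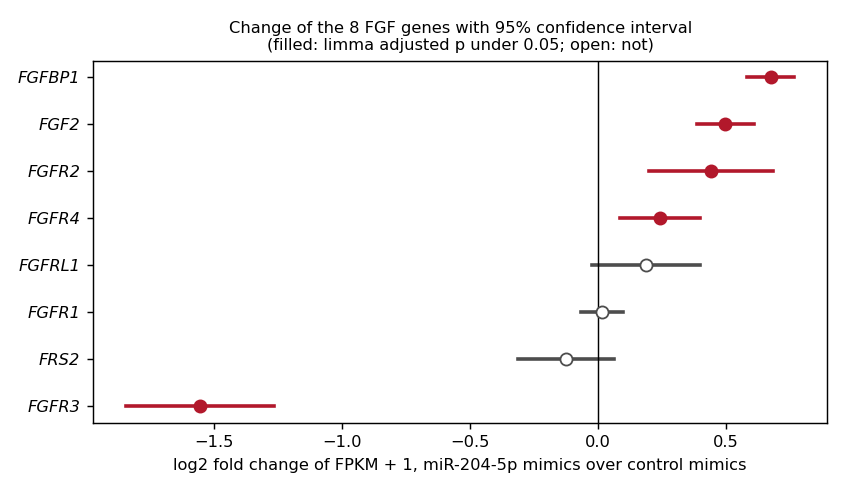
Log2 fold change of FPKM + 1 (horizontal axis, miR-204-5p mimics over control mimics) of the 8 genes, ordered by change, with 95% confidence intervals from limma as lines. Filled points passed an adjusted p-value of 0.05: FGFR3 at −1.55 and, on the other side, FGFR4, FGFR2, FGF2 and FGFBP1 from 0.24 to 0.68, while the intervals of FGFRL1, FGFR1 and FRS2 cross 0.

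With control mimics the levels ran in the order FGFBP1, FGFR3, FGF2, FGFRL1, FGFR2, FGFR4, FRS2 and FGFR1. In this order FGFR2 and FGFR4, at 3.04 and 3.02 FPKM, did not differ beyond their spread, and the other neighbours had ranges that did not overlap. With miR-204-5p mimics the order was unchanged, but FGFR3 (16.0 FPKM) and FGF2 (15.4 FPKM) now overlapped, as did FGFRL1 and FGFR2 (4.93 and 4.47 FPKM). FGFR3 had been the second of the 8 genes by a wide margin over FGF2 in the control cells.

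The sum of the 4 signalling receptors FGFR1 to FGFR4 was 54.0, 55.8 and 54.2 FPKM with control mimics and 25.9, 25.2 and 21.8 FPKM with miR-204-5p mimics. The mean sum was 54.6 ± 0.968 and 24.3 ± 2.23 FPKM (SD, n = 3), and FGFR3 accounts for the lower sum, since the means of FGFR2 and FGFR4 were higher. FGFR3 made up 88.1%, 89.8% and 88.6% of the sum in the controls and 70.4%, 67.4% and 59.0% with miR-204-5p mimics. Its mean share was 88.9% ± 0.872 and 65.6% ± 5.95 (SD, n = 3), a difference of −23.2 percentage points. FGFR2 went from 5.57% ± 0.900 to 18.6% ± 3.41 and FGFR4 from 5.53% ± 0.0677 to 15.6% ± 2.49. Shares add up to 100%, so a lower share of FGFR3 raises the others whether or not their own levels move. Groups did not overlap for any of the 4 shares (exact permutation test, p = 0.1, the lower limit of this design).

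**Figure D3:**
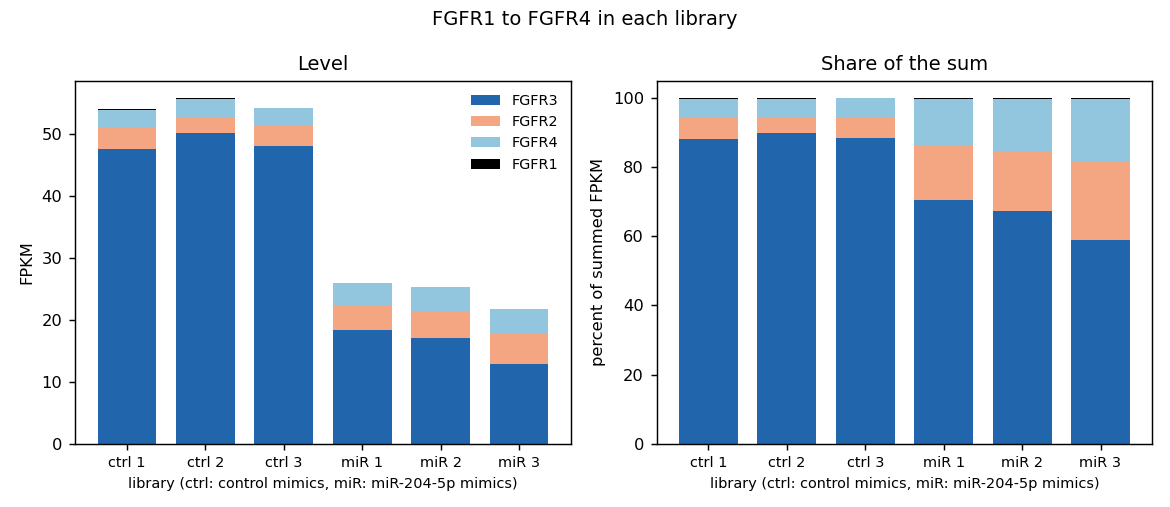
Stacked FPKM of FGFR1 to FGFR4 (left, vertical axis in FPKM) and their shares of the sum (right, in percent) in each of the 3 control mimics and 3 miR-204-5p mimics libraries. The FGFR3 segment goes from 88.1% to 89.8% of the bar to 59.0% to 70.4%, while the bar itself shrinks from 54.0 to 55.8 FPKM to 21.8 to 25.9 FPKM; FGFR1 is too low to be seen as more than a line.

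Whether receptors changed unequally was tested on their log2 ratio within each library, which does not move with the scaling of a library apart from the pseudocount of 1. Of 10 pairs among FGFR1 to FGFR4 and FGFRL1, the groups did not overlap for 8. The pairs share receptors and are not independent, and for single genes the groups did not overlap in 53.6% of all genes. In the 4 pairs with FGFR1 its own term is little more than the pseudocount. The largest differences were those of FGFR3 against FGFR2 and FGFR4. The log2 ratio of FGFR2 to FGFR3 was −3.62 ± 0.201 with control mimics and −1.63 ± 0.351 with miR-204-5p mimics (SD, n = 3), a difference of 2.00, and that of FGFR3 to FGFR4 was 3.62 ± 0.02005 and 1.83 ± 0.323, a difference of −1.80. The ratio of FGFR2 to FGFR4 differed by 0.20, or by 0.0912 without control mimics replicate 2. That of FGFR4 to FGFRL1 differed by 0.05 with overlapping groups (exact permutation p = 0.5), and by −0.00237, 0.10001 and 0.02508 without control mimics replicate 1, control mimics replicate 2 and miR-204-5p mimics replicate 1, so its direction was not settled. The exact permutation p of the 8 pairs was 0.1, or 0.125 adjusted over the 10 pairs, so none could pass 0.05 with 3 libraries per group.

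Genes of mean FPKM of at least 1 whose centred values over the 6 libraries were nearest to those of FGFR3 (Euclidean distance in log2 units) were MALL at 0.152, TPRG1L at 0.291 and MMP3 at 0.297. Their own log2 fold changes were −1.65, −1.47 and −1.45. Nearest to FGFBP1 were HSP90AB1 at 0.0538, PARN at 0.0611 and VGLL1 at 0.0651, which shared its rise, with log2 fold changes of 0.67, 0.64 and 0.69. With 2 groups of libraries such nearness follows mainly from a similar size of change.

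The pathway around the 8 genes was read from 9 lists by role, with values for 88 genes. Of these 26 fell and 22 rose, a share of 54.5% as compared to 40.8% over all genes, with a median log2 fold change of −0.05 against 0.03. The 40.8% includes genes of mean FPKM below 1, so the shares are not matched for level. In a fit of the 11504 genes at or above it, 2433 fell and 3328 rose, and of the pathway genes 25 fell and 19 rose. The gap between the pathway share and the share over all genes was smaller in that fit. The lists include the 8 genes themselves. Counts for single lists below stand beside 16.8% of all genes lower and 23.9% higher. With so many genes passing, the number that passed in a list or among the markers is no result about it. FGF1, FGF5, FGF14, FGF22, KLB, FGFBP2, FGFBP3, MAP2K1, MAP2K2, DUSP4, SPRED1, SPRY3, ETV5, MYC and the marker genes were named after their values were seen.

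Of 18 FGF ligands, 7 were among the genes with deposited values, and 5 of the 7 had a mean below 1 FPKM. The others, FGF7 and FGF10 among them, had no values to read. Besides FGF2, FGF1 rose and FGF22 fell, both under 1 FPKM, with FGF1 listed at 0 in 2 control libraries; with a library left out, FGF22 failed to pass in 5 of 6 fits and only FGF2 was higher in 5 of 6. FGF5, the only other ligand above 1 FPKM, was at 2.66 ± 0.182 and 2.15 ± 0.291 FPKM (adjusted p = 0.0901 in limma). The intracellular homologues are not secreted, and of 3 with values 1 fell and 1 rose. FGF11 fell from 13.5 ± 0.238 to 10.4 ± 0.432 FPKM (adjusted p = 0.00177 in limma, log2 change −0.35). The rise of FGF14, below 1 FPKM, failed to pass in 5 of 6 fits with a library left out. Among the 3 FGF-binding proteins, FGFBP1 and FGFBP3 rose and FGFBP2 did not pass, and the receptor list adds only the co-receptor KLB, which was at most 0.128 FPKM.

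Of 18 heparan sulfate proteoglycans and enzymes with values, 5 fell and 4 rose, with a median log2 fold change of −0.08. SDC1, the main syndecan of squamous epithelium, fell from 152 ± 4.11 to 97.4 ± 2.31 FPKM (SD, n = 3; adjusted p = 9.38e-05 in limma, log2 change −0.64), and SDC3 rose from 2.31 ± 0.346 to 4.66 ± 0.339 FPKM (adjusted p = 0.00112 in limma, log2 change 0.78). These syndecans carry the heparan sulfate chains to which FGFs bind. HS2ST1, a sulfotransferase that makes chains bound by FGF2, was lower (adjusted p = 0.000395 in limma, log2 change −0.66). HPSE, the heparanase that cuts the chains, was higher (adjusted p = 0.000272 in limma, log2 change 0.63). AGRN, which encodes the abundant basement membrane proteoglycan agrin, had a log2 change of 0.12 and did not pass (adjusted p = 0.129 in limma). The log2 change of AGRN was 0.0687 without miR-204-5p mimics replicate 3 and 0.0786 with equal medians.

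Among 14 adaptors and proximal signalling genes, 6 fell and 3 rose, with a median log2 fold change of −0.09. FRS3, the close relative of FRS2, rose from 1.502 ± 0.128 to 3.46 ± 0.106 FPKM (SD, n = 3; adjusted p = 0.000217 in limma, log2 change 0.83). Both exchange factors that load RAS were lower, SOS1 with a log2 change of −0.55 (adjusted p = 0.00114 in limma) and SOS2 with −0.67 (adjusted p = 0.000922 in limma). The adaptor CRKL fell from 53.8 ± 2.23 to 31.0 ± 1.00 FPKM (adjusted p = 9.58e-05 in limma, log2 change −0.78). CBL, a ubiquitin ligase that removes active receptors, was listed at 13.2, 12.5 and 2.34 FPKM in the controls and at 12.1, 13.8 and 13.7 FPKM with miR-204-5p mimics. Its log2 change of 0.72 (adjusted p = 0.330 in limma) rests on control mimics replicate 3, without which it was 0.04.

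In the RAS-ERK cascade 6 of 13 genes fell and the other 7 did not pass, with a median log2 fold change of −0.17. HRAS fell from 62.4 ± 1.06 to 38.9 ± 0.175 FPKM (SD, n = 3; adjusted p = 5.77e-05 in limma, log2 change −0.67) and NRAS from 40.9 ± 1.35 to 27.9 ± 1.06 FPKM (adjusted p = 0.000284 in limma, log2 change −0.54). RPS6KA3, a kinase downstream of ERK, was lower by a log2 change of −0.30 (adjusted p = 0.0178 in limma). Without miR-204-5p mimics replicate 2 only 3 genes of the list fell, since MAP2K1, MAP2K2 and RPS6KA3 no longer passed. MAP2K1 and MAP2K2 also did not pass without control mimics replicate 2 or 3, nor RPS6KA3 without control mimics replicate 3. MAPK3, which encodes ERK1, had a log2 change of −0.17 (adjusted p = 0.0651 in limma) and passed without control mimics replicate 3 or when libraries were scaled to equal sums or medians.

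Feedback inhibitors, which dampen RAS and ERK signalling, went in both directions, 3 of 13 lower and 6 higher. With a library left out 2 to 4 were lower and 4 to 5 higher. The lower ones were DUSP4, SPRED1 and, below 1 FPKM, SPRY3, with log2 changes of −0.33, −0.30 and −0.26 (adjusted p = 0.0130, 0.00447 and 0.0198 in limma). DUSP5, a phosphatase of ERK, rose from 7.42 ± 0.951 to 12.8 ± 0.847 FPKM (SD, n = 3; adjusted p = 0.00164 in limma, log2 change 0.72), and SPRED3, which restrains the cascade, and DUSP6, another ERK phosphatase, had log2 changes of 0.43 and 0.36 (adjusted p = 0.00615 and 0.0108 in limma). SPRY2, a Sprouty inhibitor of receptor signalling, was higher by a log2 change of 0.35 (adjusted p = 0.0383 in limma), a call that was kept in 6 of 13 alternatives and lost without miR-204-5p mimics replicate 2 or 3 or any one control library (limma adjusted p up to 0.111), or with equal sums or quantiles. NF1, a brake on RAS, had 31.6, 30.9 and 21.6 FPKM in the controls and 21.1, 24.1 and 24.6 FPKM with miR-204-5p mimics. It did not pass (adjusted p = 0.238 in limma, log2 change −0.24), but did so without control mimics replicate 3 (log2 fold change −0.42), and the change was −0.15 without control mimics replicate 1.

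Of 11 transcriptional targets of FGF and ERK signalling, 3 fell and 2 rose. EGR1, an immediate early gene, fell from 5.33 ± 0.772 to 2.10 ± 0.314 FPKM (SD, n = 3; adjusted p = 0.000881 in limma, log2 change −1.02). JUNB, an AP-1 factor, and IER3, an early response gene, were lower as well, with log2 fold changes of −0.42 and −0.43 (adjusted p = 0.00132 and 0.0108 in limma). CCND1, which encodes cyclin D1, rose from 57.1 ± 1.74 to 79.1 ± 1.86 FPKM (adjusted p = 0.000279 in limma, log2 change 0.46). The other rise, of ETV5, did not pass without control mimics replicate 1, and PHLDA1 had a log2 change of −0.03 (adjusted p = 0.655 in limma). MYC was listed at 17.5, 1.99 and 18.6 FPKM in the controls and at 29.1, 39.3 and 2.73 FPKM with miR-204-5p mimics. In each group a single library lay far below the others, and MYC did not pass (adjusted p = 0.657 in limma). The squamous markers also moved, 5 of 8 lower and 2 higher, beside 16.8% and 23.9% of all genes. A link between the markers and these lists was not tested.

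**Figure D4:**
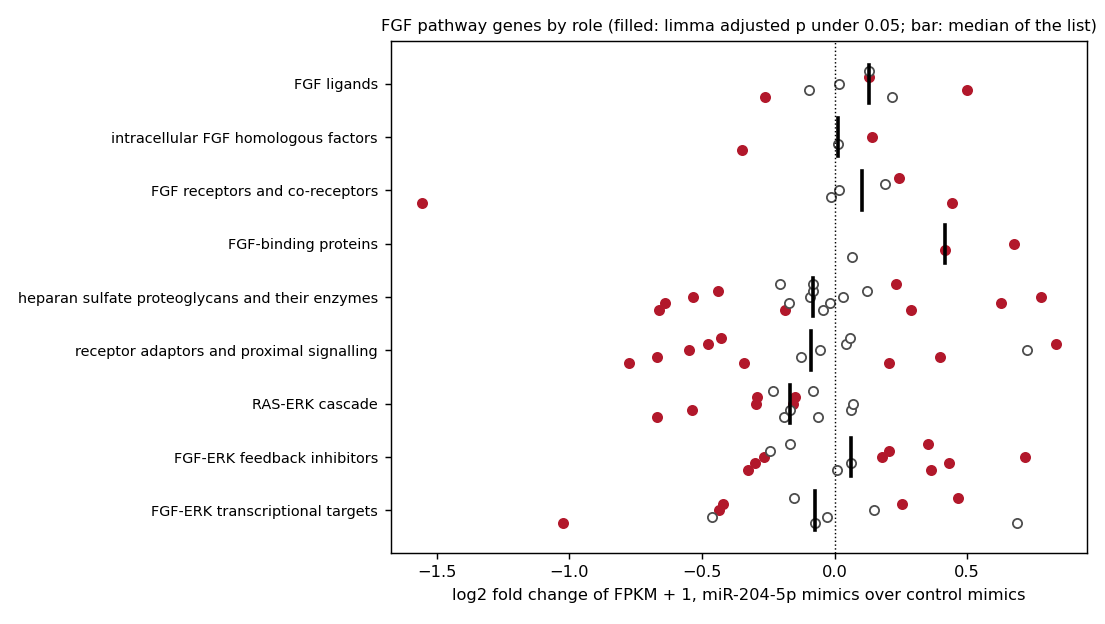
Log2 fold change of FPKM + 1 (horizontal axis, miR-204-5p mimics over control mimics) of 88 FGF pathway genes in 9 lists by role, 1 point per gene, with the median of each list as a bar and points shifted vertically only for legibility. Filled points passed a limma adjusted p-value of 0.05; FGFR3 at −1.55 is the lowest point, filled points of the RAS-ERK cascade all lie below 0, both filled points of the FGF-binding proteins lie above 0, and every other list has filled points on both sides.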

How the data were processed

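RNA of 6 UM-SCC1 samples was sequenced by the authors as Illumina TruSeq libraries. The deposited FPKM values (1 per gene and library, 14959 genes) were used as given, with the transcript length in the table as another deposited column; the submitters' processing notes name HISAT2, StringTie and hg38, without versions. The 3 columns of the authors' own comparison (log ratio, p-value, FDR) were not used. The authors ran edgeR, which needs counts. Whole reads were not recovered (24.4% to 27.5% of low values were whole multiples, tolerance 0.02, against 3.07% to 3.69% at a typical step), so limma (version 3.58.1, R version 4.3.3) was run, with a trend in eBayes, on log2(FPKM + 1) of all genes without filter. The scripts were tested on simulated data. The 8 genes and the lists were chosen with earlier results of these data known. Named in the lists were up to 4 passing genes (mean FPKM at or above 1, by size of change) and 1 gene that did not pass (mean FPKM at or above 10), and the 3 nearest genes of the lowest and the highest member. A named gene of the RAS-ERK list is not reported here. Alternatives were leaving out each library, a block for replicate number, 3 scalings, a pseudocount of 0.1, a filter at mean FPKM 1 and a fit without trend. Listed transcripts had the same coordinates in GENCODE 29 for 14844 genes, all 8 members included. No value above 0 was the same in any pair of libraries. Exact permutation tests were run in scipy 1.17.1 (Python 3.11.15), with tables in pandas 2.3.3 and numpy 2.4.6.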

Additional observations from a re-analysis of the deposited data

How the results depend on the processing

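The calls of FGFR3, FGFBP1, FGF2 and FGFR2 were kept in all 13 alternatives, with log2 fold changes from −1.65 to −1.41, 0.63 to 0.70, 0.46 to 0.53 and 0.35 to 0.55, and those that missed the threshold (FGFRL1, FRS2, FGFR1) missed it in each alternative run. The log2 fold change of FGFR4 was 0.21 with equal sums (limma adjusted p = 0.0561) and 0.16 with quantile normalization (limma adjusted p = 0.0732), neither of which passed, and 0.21 to 0.29 with a library left out. Counting FGFRL1 as a receptor gave changes in share of 10.2 (FGFR2), −27.9 (FGFR3) and 7.80 (FGFR4) percentage points. With a pseudocount of 0.1 the log2 ratio of FGFR1 to FGFR4 changed by −0.17 in place of −0.23. Members with a seed match were 1 in the longest 3'UTR, 2 over all annotated 3'UTRs and 3 with 6-base matches, the last chosen after seeing the data. PHLDA1 ran from −0.0583 to 0.0117 with a library left out. Scaling to equal sums or medians or by quantiles moved the median log2 fold change of all genes from 0.03 to 0.01 or less and the share of higher among passing genes from 58.7% to 50.1% to 51.6%.

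With the replicate number as a block, FGFR4 had the same log2 fold change of 0.24 and a limma adjusted p of 0.0635, 3 members were higher in place of 4, and 2097 genes were lower and 2999 higher over the table, as compared to 2520 and 3578. Deviations of same-numbered libraries correlated at −0.0401, −0.0210 and −0.108, so the numbers were not taken as pairs.

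At the length of the listed transcript FGFR1 and FRS2 correspond to few fragments, but which length each FPKM value used is not known. The p-values measure the spread between 3 replicate libraries per group, all of a single line.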
